A study of Arabidopsis thaliana with 12 samples.

Results

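The 4 genes described here code for plastid enzymes of amino acid synthesis: APS4 (AT5G43780) and CBL (AT3G57050) of the sulfur route to methionine, AT3G58610 of the branched-chain route, and AT-HF (AT4G26900) of the histidine route. They were set by locus, with earlier results of these data known, and are the array features that the platform annotation ties to exactly 1 gene, that gene being 1 of these 4. Each had a single feature, so 4 of the 692 single-gene features and of the 3439 features in all are members. RNA of Arabidopsis thaliana, ecotype Wassilevskija, had been measured in 12 samples. The 6 control samples were wild type plants whose roots stood on MS medium with 100 mM glucose for 48 h. The other 6 came from kn09, a mutant hypersensitive to proline and blocked, per the labels, in breaking proline down in the mitochondrion, which stood on MS with 100 mM proline for 48 h. The mutant was grown only on proline and the wild type only on glucose, so mutation, proline and glucose cannot be told apart. The mutated gene is not named in the labels. Nor do they say whether separate plants or cultures stand behind the samples of a group, so the p-values speak only for the variation among these arrays, part or all of which may be technical.

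Plants make methionine, the branched-chain amino acids and histidine largely inside the plastid. Sulfate is first joined to ATP by ATP sulfurylase, the enzyme that APS4 encodes, then reduced to sulfide and built into cysteine; cystathionine beta-lyase, encoded by CBL, splits cystathionine to homocysteine, the direct precursor of methionine. Ketol-acid reductoisomerase, encoded by AT3G58610, follows acetohydroxyacid synthase in the shared route to valine, leucine and isoleucine. AT-HF, also called HISN4, is imidazole glycerol phosphate synthase, which closes the imidazole ring of histidine and returns a by-product to purine synthesis. Proline is made from glutamate and is broken down in the mitochondrion, outside these routes.

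None of the 4 genes passed the test between the groups. In limma, with Benjamini-Hochberg adjustment over all features, 0 of 4 reached an adjusted p of 0.05, while 26.0% of the single-gene features did, 12.9% being higher and 13.2% lower in kn09 on proline. Over all features the share was 27.7%, with 14.1% higher and 13.6% lower. At an unadjusted p of 0.05 the count was 0 in limma and 0 in the exact permutation test over samples. The 2 sulfur genes had lower values in kn09 on proline, and AT3G58610 and AT-HF had higher ones. The intensities of the groups overlapped for each of the 4, whereas 16.5% of single-gene features and 18.0% of all features had groups that did not overlap.

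Facts of the arrays bear on these values. The neighbouring sample numbers 1 and 2, 3 and 4, and 5 and 6 of a group were alike, with rank correlations of 0.838 to 0.944 over all features, against 0.782 to 0.874 for other sample pairs of a group. The mean rank correlation with the kn09 samples was 0.795 for wild type samples 1 and 2, higher than the 0.736 of the other 4. Of 12 root markers, 0 had a single-gene feature, so the labelled root material could not be checked against them. Of 12 green tissue markers 4 had one, and their summed intensity was 32.5 to 51.5 in wild type and 5.81 to 8.94 in kn09. Most of this sum was LHB1B2, with a mean of 35.3 in wild type and 5.88 in kn09. LHB1B2, PSAN and PRK fell and were above 0 in every sample; SBPASE did not pass, with an adjusted p of 0.129 in limma, and was at 0 in 2 kn09 samples. The enzymes described here are plastid proteins, and the part of green tissue in their values was not tested. In bulk RNA, fewer cells of a type and less RNA per cell cannot be told apart.

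APS4 had intensities of 0.207, 0.172, 0.420, 0.435, 0.381 and 0.305 in wild type samples 1 to 6. In kn09 samples 1 to 6 it had 0.145, 0.0627, 0.314, 0.347, 0.230 and 0.228. The lowest intensities of both groups were in samples 1 and 2 and the highest in samples 3 and 4. Of the 6 kn09 intensities 4 lay inside the wild type range while the other 2 lay under it. On the normalized log2 scale only kn09 sample 2 lay under that range, and wild type sample 5 was the highest of its group. The wild type mean was 0.320 ± 0.111 (SD, n = 6) and the kn09 mean 0.221 ± 0.105 (SD, n = 6), in the authors' linear units. On the normalized log2 scale the difference was -0.49 ± 0.41 (SE), and limma gave an adjusted p of 0.408. As a ratio this is 0.710, with a 95% interval from 0.381 to 1.32 (log2 -1.39 to 0.40) that takes the samples as independent. With the sample pairs averaged, the log2 interval was -1.87 to 0.88. It reaches further on both sides, so a rise beyond 1.32 times is not excluded. The exact permutation test, two-sided, gave p = 0.301, where 0.00216 is the smallest it can give.

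Most of the spread of APS4 lay between the sample pairs. Of its variation within groups, 88.2% was between the pairs 1 and 2, 3 and 4, and 5 and 6, against a median of 63.1% for single-gene features. The 2 samples of a pair differed by at most 1.25 times in 5 of the 6 pairs, and by 2.32 times in kn09 samples 1 and 2. Leaving out wild type samples 1 and 2, the lowest of their group, moved the log2 difference to -0.95, with an adjusted p of 0.0998 in limma. The unadjusted limma p was 0.0420 and the log2 interval -1.86 to -0.04, in a fit that takes the samples as independent. Leaving out kn09 sample 2 moved the log2 difference to -0.23. APS4 is a member of a small family of ATP sulfurylases, of which APS1, APS2 and APS3 had no feature in the annotation. Probe sequences were not used here, so signal from these relatives cannot be told apart from that of APS4.

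CBL had intensities of 0.152, 0.235, 0.415, 0.0826, 0.557 and 0.736 in wild type samples 1 to 6. In kn09 samples 1 to 6 it had 0.134, 0.0557, 0.366, 0.00465, 0.274 and 0.221. In these intensities wild type samples 3, 5 and 6 were above all kn09 samples, kn09 samples 2 and 4 were below all wild type samples, and the other 7 lay among each other. The order was weaker on the normalized log2 scale that was tested. There only wild type samples 5 and 6 were above all kn09 samples, and only kn09 sample 4 was below all wild type samples. The wild type mean was 0.363 ± 0.253 (SD, n = 6) and the kn09 mean 0.176 ± 0.137 (SD, n = 6), a ratio of means of 0.484. The log2 difference was -1.01 ± 0.83 (SE), and limma gave an adjusted p of 0.401. The exact permutation test gave p = 0.288. The interval of the ratio ran from 0.141 to 1.74.

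CBL varied widely within each group. Its SD within groups was 1.55 on the log2 scale, close to the 1.52 of AT-HF, against 0.73 for both APS4 and AT3G58610. This was larger than in 78.7% of all features, and its coefficient of variation was 69.6% in wild type and 77.7% in kn09. Samples of a pair could lie far apart: kn09 sample 3 had 0.366 and kn09 sample 4 had 0.00465. The latter stood at percentile 13.7 of a sample in which 430 of 3439 features were at 0, so it lay just above the zeros and the size of the gap has no firm value. Only 38.3% of the variation of CBL within groups lay between pairs. Without kn09 sample 4 the log2 difference was -0.43, with an adjusted p of 0.686 in limma. Without wild type sample 6 it was -0.68, and without wild type sample 4, the dimmest of its group, -1.47. Without wild type samples 1 and 2 it was -1.41, with an adjusted p of 0.339.

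**Figure D1:**
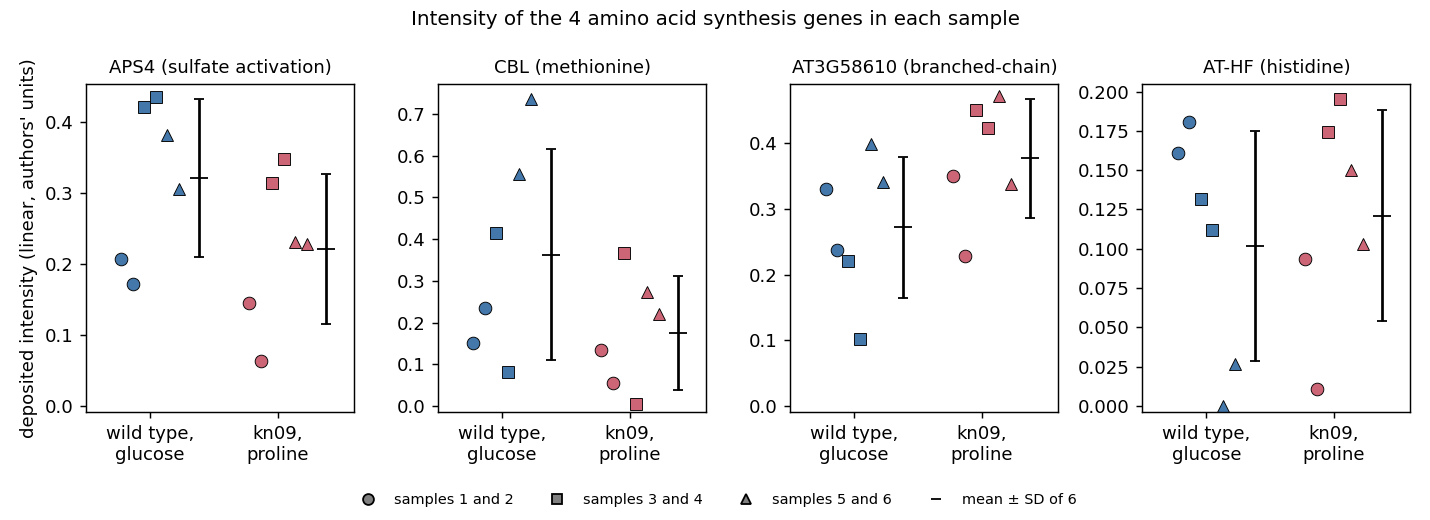
Deposited intensity (vertical axis, linear, in the authors' units, each panel with its own scale) of APS4, CBL, AT3G58610 and AT-HF in the 6 wild type samples on glucose and the 6 kn09 samples on proline; marker shape gives the sample pair and the bar beside each group its mean ± SD. The groups overlap in each panel, APS4 values cluster by sample pair, and CBL and AT-HF each have single samples near 0.

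AT3G58610, the ketol-acid reductoisomerase, had intensities of 0.330, 0.238, 0.221, 0.102, 0.398 and 0.341 in wild type samples 1 to 6. In kn09 samples 1 to 6 it had 0.349, 0.228, 0.451, 0.423, 0.472 and 0.338. In these intensities samples 3, 4 and 5 of kn09 were above all wild type samples, and the other 3 lay inside the wild type range. On the normalized log2 scale that was tested, only kn09 sample 3, at -1.10, was above all wild type samples. Wild type sample 5 was at -1.12 there. The wild type mean was 0.272 ± 0.107 (SD, n = 6) and the kn09 mean 0.377 ± 0.0905 (SD, n = 6). The log2 difference was 0.67 ± 0.41 (SE), and limma gave an adjusted p of 0.252. The exact permutation test gave p = 0.132, and both p-values were the smallest among the 4 genes. As a ratio this is 1.59, with a 95% interval from 0.854 to 2.96 (log2 -0.23 to 1.57) that takes the samples as independent. With the sample pairs averaged, the log2 interval was -0.62 to 1.96. It reaches further on both sides, so a fall below 0.854 is not excluded. Wild type sample 4, at 0.102, was the dimmest of the 12, and without it the log2 difference was 0.34, with an adjusted p of 0.462. Without wild type samples 1 and 2 it was 0.76, with an adjusted p of 0.282 in limma.

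AT3G23940, the dihydroxyacid dehydratase that acts directly after ketol-acid reductoisomerase, was the other measured gene of the 20 listed for branched-chain amino acid synthesis. Its wild type samples 1 to 6 had 0.515, 0.608, 0.299, 0.233, 0.328 and 0.256, and its kn09 samples had 0.487, 0.673, 0.700, 0.951, 0.593 and 0.717. Wild type samples 3 to 6 were below all kn09 samples, and wild type samples 1 and 2 lay among them. It rose by 0.91 ± 0.30 (SE) on the log2 scale, a ratio of 1.87 (limma adjusted p 0.0433). In 9 of the 12 fits that left out a single sample the call ended, the highest adjusted p being 0.0886. It also ended with the sample pairs averaged, at 0.239, or as a random block, at 0.0947. Without wild type samples 1 and 2 the difference was 1.29, with an adjusted p of 0.00394. The difference of AT3G23940 exceeded that of AT3G58610 by 0.24 ± 0.39 (SE) on the log2 scale, with an exact permutation p of 0.543, adjusted to 0.563 over 3 such contrasts. The call of AT3G23940 and its absence for AT3G58610 thus do not show that the 2 steps responded differently.

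The feature of AT-HF was dim, with a median position at percentile 34.4 of the features of a sample. In wild type samples 1 to 6 it had 0.161, 0.181, 0.131, 0.112, 0 and 0.0267. In kn09 samples 1 to 6 it had 0.0936, 0.0107, 0.174, 0.195, 0.150 and 0.103. Wild type samples 5 and 6 and kn09 sample 2 were far lower than the rest, and the other wild type intensities lay inside the range of the other kn09 intensities. On the normalized log2 scale wild type samples 3 and 4, at -3.40 and -3.58, lay below that range, whose lowest value was -3.32 in kn09 sample 6. The wild type mean was 0.102 ± 0.0731 (SD, n = 6) and the kn09 mean 0.121 ± 0.0669 (SD, n = 6), and the medians were 0.122 and 0.126. The log2 difference was 1.07 ± 0.81 (SE), and limma gave an adjusted p of 0.364. The exact permutation test gave p = 0.236. The 95% interval of the ratio ran from 0.612 to 7.18, while the ratio of the mean intensities was 1.19. The size moved with the sample listed at 0: without wild type sample 5 the log2 difference was 0.40. With every value at 0 on the array as missing, the sign turned, at -0.10. Without wild type samples 1 and 2 it was 1.83, with an adjusted p of 0.149.

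Phosphoribosyl pyrophosphate, the substrate from which histidine synthesis starts, is made by synthetases of which 2 of the 5 listed genes were measured. AT2G35390 rose by 2.81 ± 0.23 (SE) on the log2 scale, from 0.119 to 0.352 in wild type to 1.18 to 1.91 in kn09, with an adjusted p of 5.12e-06 in limma. AT2G44530 averaged 0.157 ± 0.0363 (SD, n = 6) on glucose in wild type against 0.132 ± 0.0795 (SD, n = 6) in kn09. On the log2 scale it differed by -0.14 ± 0.36 (SE), and limma gave an adjusted p of 0.806. The difference of AT2G35390 exceeded that of AT-HF by 1.74 ± 0.86 (SE), with an exact permutation p of 0.0758, adjusted to 0.227 over the 3 contrasts. The larger response of AT2G35390 thus did not pass the test against AT-HF.

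**Figure D2:**
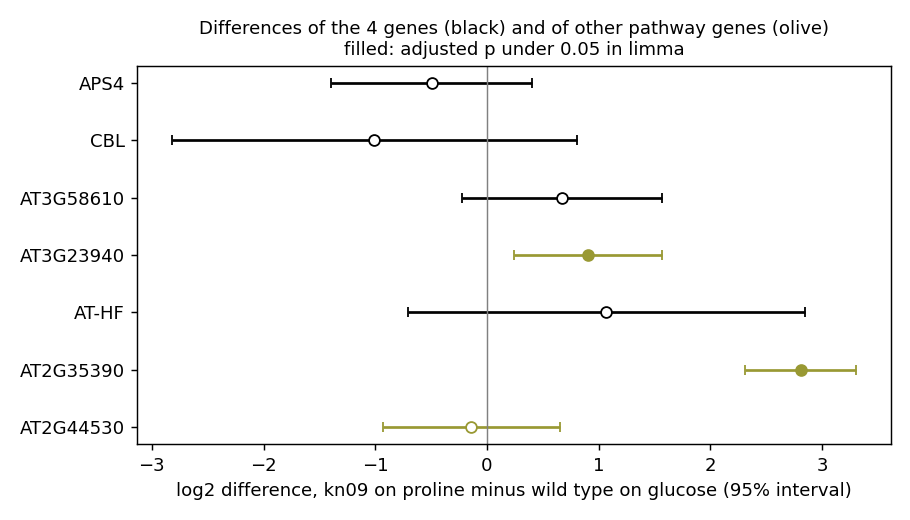
Log2 difference between kn09 on proline and wild type on glucose (horizontal axis) with its 95% interval from limma, for the 4 genes in black and the 3 other measured pathway genes in olive; filled circles passed an adjusted p of 0.05. The intervals of the 4 genes all include 0, and AT3G23940 at 0.91 and AT2G35390 at 2.81 lie above it.

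**Figure D3:**
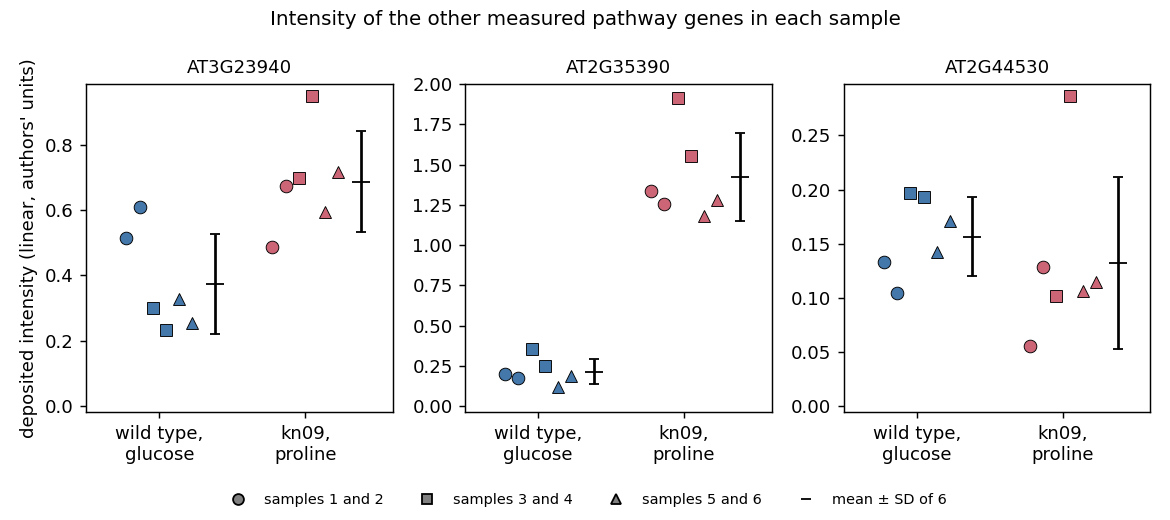
Deposited intensity (vertical axis, linear, in the authors' units, each panel with its own scale) of AT3G23940, AT2G35390 and AT2G44530 in the 6 samples of each group; marker shape gives the sample pair and the bar the mean ± SD. The groups are apart for AT2G35390, while for AT3G23940 wild type samples 1 and 2 lie among the kn09 samples.

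The wider routes were sparsely covered by the array. Of 94 listed genes, 7 had a single-gene feature, 2 were only on features annotated to several genes, and 85 were on none. Of the 7, 2 rose, 0 fell and 5 did not pass. Of all single-gene features on the array, 12.9% were called higher and 13.2% lower, together 26.0%. The 7 genes are too few to be set against these shares. The median log2 difference of the 7 was 0.67, the value of AT3G58610, which did not pass, and that of all single-gene features was -0.02. Sulfate uptake and assimilation, with 21 listed genes, was represented by APS4 alone, and methionine synthesis and the methyl cycle, with 16, by CBL alone. Of 11 histidine genes AT-HF was the single one with its own feature. Neither the 14 genes of cysteine and glutathione synthesis nor the 7 of proline metabolism had any.

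The 4 genes had correlations of both signs with each other. Over the 12 samples, with group means subtracted, Pearson's r between pairs of them ran from -0.37 for CBL with AT-HF to 0.52 for CBL with AT3G58610, and it was 0.11 between the 2 sulfur genes. The log2 difference of APS4 exceeded that of CBL by 0.52 ± 0.95 (SE), with an exact permutation p of 0.563, which is also its value adjusted over the 3 contrasts. These correlations are descriptions, since the 12 points share sample pairs and CBL and AT-HF each have values near 0. Whether the 4 genes vary together was not tested. Among the single-gene features with no value at 0, the pattern most like that of APS4 was AT1G15140, with r of 0.91 over the 12 samples after subtracting group means, followed by AT4G15840 with 0.90. For CBL these were AT3G56250 with 0.83 and AT2G34050 with 0.79. For AT3G58610 they were AT1G72020 with 0.80 and AT3G20920 with 0.79. For AT-HF they were AT4G32060 with 0.92 and AT5G13260 with 0.86. These 2 per gene had the highest r among at least 415 candidates and were picked for it. Their order depended on the scaling: without normalization AT4G15840 had 0.853 and AT1G15140 0.849 with APS4, and AT5G13260 had 0.908 and AT4G32060 0.888 with AT-HF.

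**Figure D4:**
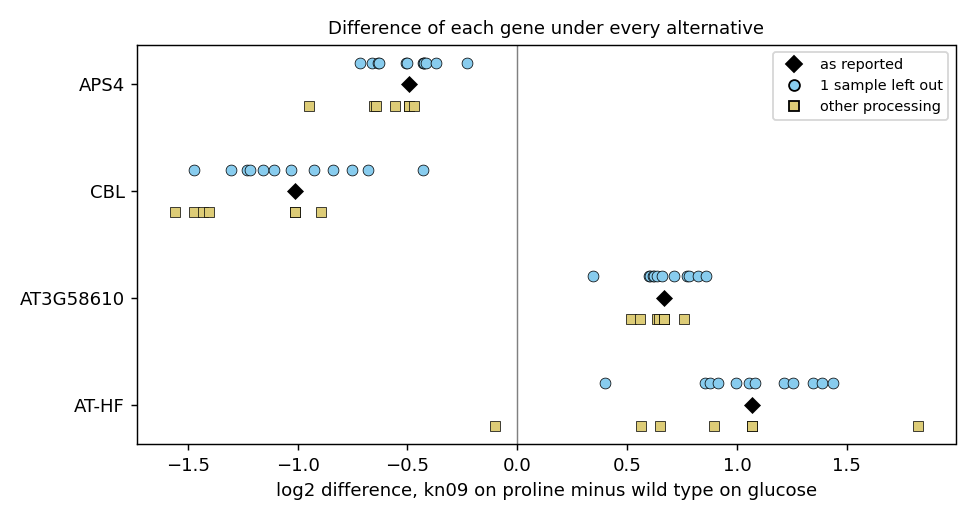
Log2 difference between kn09 on proline and wild type on glucose (horizontal axis) for APS4, CBL, AT3G58610 and AT-HF as reported (diamonds), with each of the 12 samples left out (circles) and under the other processing alternatives (squares). APS4 and CBL stay below 0 and AT3G58610 above it in every alternative shown, while AT-HF crosses 0 at -0.10 with values at 0 as missing.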

How the data were processed

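The authors deposited 1 intensity per feature and sample, on a linear scale of 0 to about 100 whose reference is not given in the sources used here; nor are scanner, background correction, normalization or probe sequences. Taking the values as linear rests on their shape, and centring stays unknown. Median intensity per sample was 0.137 to 0.224, and 12 arrays limit the precision. The features at 0 numbered 175 to 265 per wild type sample and 317 to 475 per kn09 sample. The log2 interquartile range was 2.30 to 2.95 in wild type and 2.96 to 3.28 in kn09. The treatment of values at 0 and the normalization thus did not act alike on the 2 groups. The titles gave each sample its group and number. GEO's platform annotation gave 1 gene for 692 features, several for 870 and none for 1877; 690 of the 692 matched the TAIR10.1 gene table through the Entrez identifier.

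Values under the 1st percentile of a sample's positive values were set to that percentile, log2 was taken, and samples were quantile normalized. Groups were compared in limma 3.58.1 under R 4.3.3 (lmFit, eBayes, two-sided, group as the only term, Benjamini-Hochberg over 3439 features, threshold 0.05). Exact permutation, two-sided, with 924 arrangements, was applied to the difference of group means on the normalized log2 scale. This was done for each of the 4 genes and for the contrasts between genes, which were chosen with the values known. The limma step was run on simulated data with independent samples and no values at 0. That run does not cover the likeness of sample pairs or the zeros of these arrays. Named genes were the 4 members, the listed pathway and tissue marker genes with a single-gene feature, and the 2 features most like each member. The members, lists and alternatives were chosen with earlier results of these data known. Same-numbered samples of the 2 groups had correlations of deviations of 0.03 to 0.10, at most 0.0968, and numbers were not treated as pairs. Differently numbered samples were not set beside these values, which do not settle the question for a single gene. APS4 was lowest in sample 2 of both groups and CBL in sample 4 of both, while AT3G58610 and AT-HF shared no lowest sample.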

Additional observations from a re-analysis of the deposited data

Results flagged for a closer look

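In 14 sets of 6 values, those of the 7 measured pathway genes in each group, 1 had a sample set apart from the rest; chance alone does this in about 1 in 20 sets. AT2G44530 stood at 0.286 in kn09 sample 4, above 0.0551 to 0.129 in the other 5 kn09 samples. None of the 8 sets of the 4 synthesis genes did, although CBL in kn09 sample 4 and AT-HF in wild type sample 5 were near or at 0. The check used the deposited linear intensities, where a value near 0 has little room to stand apart from other low ones. The log2 values were not put to it, so low samples are not cleared by it.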

How the results depend on the processing

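None of the 4 genes passed under any alternative run. APS4 ran from -0.95 to -0.47 and CBL from -1.56 to -0.89 in log2 difference, AT3G58610 from 0.52 to 0.76, and AT-HF from -0.10 with values at 0 as missing, its single change of sign, to 1.83. With 1 sample left out the ranges were -0.71 to -0.23, -1.47 to -0.43, 0.34 to 0.86, and 0.40 to 1.44. With no normalization the median of all features was -0.37, with median centring -0.28 and with values at 0 as missing -0.13, against -0.03 as reported. Relative to the median of all features, APS4 was at -0.46 as reported and at -0.27 with no normalization or median centring, CBL at -0.98 and -1.19, AT3G58610 at 0.70 and 0.93, and AT-HF at 1.10 and 0.94. With values at 0 as missing the 4 were at -0.52, -1.30, 0.65 and 0.03. With the replicate block the adjusted p in limma was 0.0929 for CBL, 0.150 for APS4, 0.284 for AT3G58610 and 0.397 for AT-HF. The unadjusted limma p there was 0.0313 for CBL, with a log2 interval of -1.90 to -0.12, and 0.0637 for APS4. In that fit 835 features passed against 954, and the numbers were not shown to pair the samples. In deposited intensity kn09 was the lower of the same-numbered samples in 6 of 6 for both CBL and APS4. On the normalized log2 scale this held for APS4, while CBL was higher in kn09 in samples 1 and 3. How many of all features share this was not counted. With sample pairs averaged 213 of all and 43 of the single-gene features passed, and with pairs as a random block 624 and 119, against 180 single-gene features as reported; averaging leaves 3 values against 3. With 1 sample left out the counts were 794 to 1023 and 143 to 201. Of the 7 pathway genes 1 rather than 2 passed with values at 0 as missing, with the replicate block, with pairs averaged or with the random block, and 1 to 2 with 1 sample left out; AT3G23940 lost its call there, and the cause was not tested. AT2G44530 ran from -0.39 to 0.0079 with 1 sample left out, changing sign without kn09 sample 1. With no normalization 448 features were higher and 546 lower, and with values at 0 as missing 430 and 560, against 485 and 469.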
